A study of Mus musculus with 4 samples.

Results

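The Hox genes encode homeodomain transcription factors that lie in 4 clusters, Hoxa, Hoxb, Hoxc and Hoxd, on mouse chromosomes 6, 11, 15 and 2. They were measured here in sorted glioma cells. Members were the probe sets whose only annotated symbol was a protein-coding gene of 1 of these clusters, with antisense and opposite-strand transcripts left out. Of the 39 Hox genes in the mouse RefSeq table, 37 were measured, out of 19937 genes tested in all, and each had 1 probe set. The others were not analysed here.

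The cells came from 4 samples of C57/Bl6 mice with PDGF-B/EGFP overexpression, which both groups share. A retrovirus carrying the growth factor PDGF-B and the fluorescent marker EGFP was injected on embryonic day 14, the mice grew until glioma symptoms appeared, and EGFP-positive tumour cells were collected by flow cytometry. The late-onset, high-grade group held 2 samples, each from 1 tumour, called tumour 1 and tumour 2. The early-onset, low-grade group held 2 samples, each a pool of cells from 2 tumours, called pool 1 and pool 2, so a pool averages over animals and a tumour does not. Ages at onset, and where in the brain each tumour lay, were not among the labels. RNA was measured on Affymetrix whole-transcript arrays, and the values are log2 probe set summaries made by RMA. Differences are late-onset minus early-onset on that log2 scale, and a gene is said to be called where limma gave a Benjamini-Hochberg adjusted p below 0.05 over all genes.

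Hox genes are switched on in the order in which they lie in a cluster. Low-numbered genes act in the hindbrain and high-numbered genes further down the body, while the forebrain and midbrain lack Hox expression in development. Neural cells keep part of this pattern after birth, so the Hox genes a glial cell expresses carry a trace of its position along the body axis. Polycomb proteins keep the clusters silent, retinoic acid opens them from the low-numbered end, and proteins of the PBX and MEIS families bind DNA together with Hox proteins.

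Over the whole array, the tumours correlated at r = 0.988 with each other and the pools at 0.992, against 0.972 to 0.974 between a tumour and a pool. Of all genes, 6.59% were called higher and 8.12% lower, and the groups did not overlap for 58.9%. The marker counts that follow are to be read beside these shares. All 16 microglia and macrophage markers had lower values in both tumours than in both pools and 15 were called lower, with mean log2 values of 6.80 in tumour 1 and 7.27 in tumour 2 against 10.73 in pool 1 and 10.49 in pool 2. None of the 8 pericyte and fibroblast markers was called higher and 1 was called lower (Rgs5), and their mean log2 value was 8.81 in tumour 2, against 6.20 in tumour 1, 6.43 in pool 1 and 6.53 in pool 2. All 8 astrocyte markers were likewise below the pools in both tumours, with 4 called lower, and of 7 neuron markers 4 were called lower and 0 higher. Of 4 mature oligodendrocyte markers 1 was called lower, the myelin gene Mbp (-1.45). Mog (-0.59), Mag (0.36) and Cnp (0.11) were not called. The 6 oligodendrocyte lineage markers averaged 12.15 and 12.01 in the tumours against 12.36 and 12.41 in the pools. All 6 differences were below 0, and 1 gene was called lower, Pdgfra (-0.45, adjusted p 0.041 by limma). Olig2 (-0.19) and Sox10 (-0.001) were not called. On these bulk samples, fewer cells of a type and less RNA per cell cannot be told apart. Since log2 values have no true zero, no marker can be said to be absent.

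The results centre on Hoxa2 to Hoxa5, so the 250 bases before the start of Hoxa2, Hoxa3 and Hoxa5 are shown, as RefSeq gives them on the minus strand of GRCm38.p6. The windows are chr6:52164832-52165081 for Hoxa2, chr6:52213068-52213317 for Hoxa3 and chr6:52204588-52204837 for Hoxa5. Capitals mark matches, on either strand, to 7 motifs: TGACAG (MEIS), TGATNNAT (PBX with a Hox protein), AGGTCA (the half-site of retinoic acid and other nuclear receptors), TTTATT (CDX), TAATTA (a homeodomain palindrome), GCGNGGGCG (EGR) and CCAAT.
Hoxa2: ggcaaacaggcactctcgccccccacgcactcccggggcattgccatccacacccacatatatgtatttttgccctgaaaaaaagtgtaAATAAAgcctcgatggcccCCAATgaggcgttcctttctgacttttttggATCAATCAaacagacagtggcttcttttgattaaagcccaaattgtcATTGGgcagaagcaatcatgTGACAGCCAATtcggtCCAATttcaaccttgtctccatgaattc
Hoxa3: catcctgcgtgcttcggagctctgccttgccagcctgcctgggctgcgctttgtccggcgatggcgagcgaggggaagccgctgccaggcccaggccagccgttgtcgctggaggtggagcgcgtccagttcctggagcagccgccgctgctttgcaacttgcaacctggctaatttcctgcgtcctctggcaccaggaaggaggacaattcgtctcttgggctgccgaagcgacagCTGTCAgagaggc
Hoxa5: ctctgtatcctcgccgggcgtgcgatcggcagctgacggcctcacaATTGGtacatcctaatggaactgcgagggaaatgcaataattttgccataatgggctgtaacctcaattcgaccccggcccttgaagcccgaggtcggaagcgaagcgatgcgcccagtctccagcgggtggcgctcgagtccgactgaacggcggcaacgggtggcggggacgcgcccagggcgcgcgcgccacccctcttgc

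The Hoxa2 window held 7 matches and none of them overlapped: 4 to CCAAT and 1 each to the MEIS, PBX and CDX motifs. The Hoxa3 window held 1 match to the MEIS motif, and the Hoxa5 window 1 match to CCAAT. Over 32851 RefSeq windows of the same length, TGACAG was found in 15.9%, TGATNNAT in 7.68%, AGGTCA in 14%, TTTATT in 18.1%, TAATTA in 4.84%, GCGNGGGCG in 4.7% and CCAAT in 33.8%. The Hoxa5 window held 28 CG dinucleotides, a count reached by 7.61% of all windows, against 18 for Hoxa3 and 6 for Hoxa2, and the median over all windows was 6. The Hoxa3 window lies before the start of its long span, beyond Hoxa6 on the chromosome, and not between Hoxa3 and Hoxa4. These matches are letters in a sequence, and no binding was measured.

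Hoxa5, which patterns the neck and upper trunk and the caudal hindbrain, was the only Hox gene called, and it was higher in late-onset cells. Its log2 values were 7.74 in tumour 1 and 6.64 in tumour 2, against 4.92 in pool 1 and 5.14 in pool 2. Both tumours lay above both pools, and tumour 1 was above tumour 2 by 1.10. The difference of 2.17 (SE 0.36, 95% interval 1.26 to 3.07, adjusted p = 0.0197 by limma) is a 4.49-fold higher signal. Since both pool values lie within the dim signal range of olfactory receptor genes, this fold is of the measured signal and may understate that of the transcript. Thus 1 of 37 Hox genes was called higher, against 6.59% of all genes, and 0 were called lower, against 8.12% of all genes, with 14.7% of all genes called in either direction. At an unadjusted p below 0.05 by limma, 2 Hox genes passed, Hoxa3 and Hoxa5, against 29.9% of all genes. The call was lost without pool 1 (2.06, adjusted p 0.0996) and without pool 2 (2.27, adjusted p 0.0903), where the lone pool was assumed to vary like the tumours. Without tumour 1 (1.61, adjusted p 0.00808) and without tumour 2 (2.72, adjusted p 0.00308) it was called, but there the spread came from the pools alone and the lone tumour was assumed to vary like them, so these smaller p-values add no support.

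Microglia, astrocyte and neuron markers were lower in late-onset cells, the other way from Hoxa5. Mature oligodendrocyte markers were mixed, with 2 differences above 0 and 2 below, Mbp among the latter. The pericyte and fibroblast markers averaged highest in tumour 2, where Hoxa5 was the lower of the tumours. The part of these cell types in the Hoxa5 result was not tested.

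**Figure D1:**
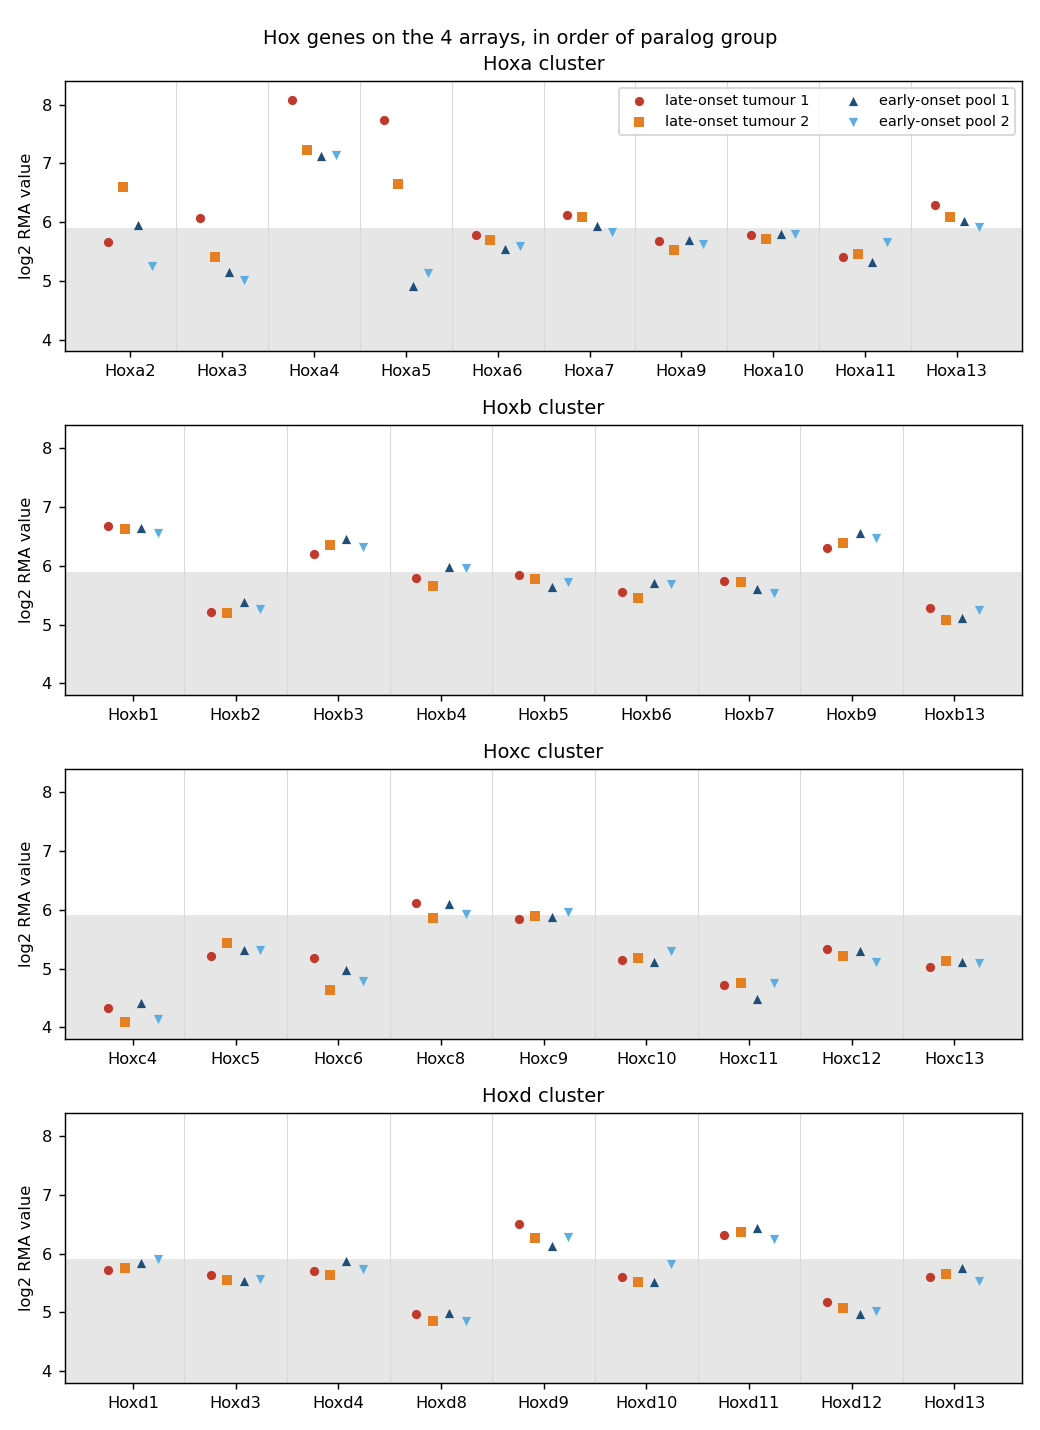
Log2 RMA values of the 37 Hox genes on the 4 arrays, 1 panel per cluster, with genes in order of paralog group and 1 symbol per array. The grey band ends at 5.89, the value below which 95% of the olfactory receptor genes lie; Hoxa5 reaches 7.74 and 6.64 in the tumours and stays within the band in the pools.

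The neighbours of Hoxa5 on its low-numbered side differed between the tumours more than between the groups. They are described here because of their place beside Hoxa5, and Hoxa2 and Hoxa3 were chosen after their values were seen. Hoxa4, a hindbrain and cervical patterning gene, had log2 values of 8.08 in tumour 1 and 7.22 in tumour 2, against 7.12 in pool 1 and 7.14 in pool 2. Tumour 1 stood apart, and tumour 2 lay close to both pools. The Hoxa4 difference was 0.52 (SE 0.28, 95% interval -0.18 to 1.23, adjusted p 0.286). Hoxa3, which patterns the caudal hindbrain and the throat organs, was at 6.08 and 5.40 in tumours 1 and 2, against 5.15 and 5.02 in pools 1 and 2, a difference of 0.65 (SE 0.23, 95% interval 0.06 to 1.24, adjusted p 0.134). Tumour 1 was again the highest array, and the groups did not overlap for either gene.

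Tumour 1 decided the values of Hoxa3 and Hoxa4. In the fits that leave out a tumour, the lone tumour was assumed to vary like the pools, which lay close together for both genes. Only the differences are therefore given. Without tumour 2, Hoxa3 stood at 0.99 and Hoxa4 at 0.95. Without tumour 1, Hoxa3 stood at 0.31 and Hoxa4 at 0.10.

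Hoxa2, the gene that sets the identity of the anterior hindbrain and its neural crest, did not share this order. Its log2 values were 5.65 in tumour 1 and 6.59 in tumour 2, against 5.95 in pool 1 and 5.26 in pool 2. Tumour 2 was the highest array, tumour 1 lay between the pools, and the groups overlapped. The difference was 0.52 (SE 0.37, 95% interval -0.42 to 1.46, adjusted p 0.422). It was 0.99 without tumour 1 and 0.05 without tumour 2, with adjusted p of 0.104 and 0.94. It was 0.86 without pool 1 and 0.18 without pool 2, with adjusted p of 0.331 and 0.872. In tumour 2 the pericyte and fibroblast markers were also high, with the collagen gene Col1a1 at 10.23 there and 7.26 in tumour 1, against 7.44 and 7.57 in the pools. Their part in the Hoxa2 value was not tested.

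The distance between the tumours was large for these 4 genes. Tumour 1 minus tumour 2 was 1.10 for Hoxa5, 0.85 for Hoxa4, 0.67 for Hoxa3 and -0.94 for Hoxa2. Tumours lay at least as far apart for 0.958% of all genes in the case of Hoxa5, 1.84% for Hoxa4, 3.09% for Hoxa3 and 1.44% for Hoxa2. Only 1 other Hox gene, Hoxc6 (5.17 in tumour 1 and 4.64 in tumour 2, against 4.98 and 4.79 in the pools), had tumours more than 0.5 apart, which 6.45% of all genes did. Hoxa2 alone had pools more than 0.5 apart, against 3.61% of all genes.

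**Figure D2:**
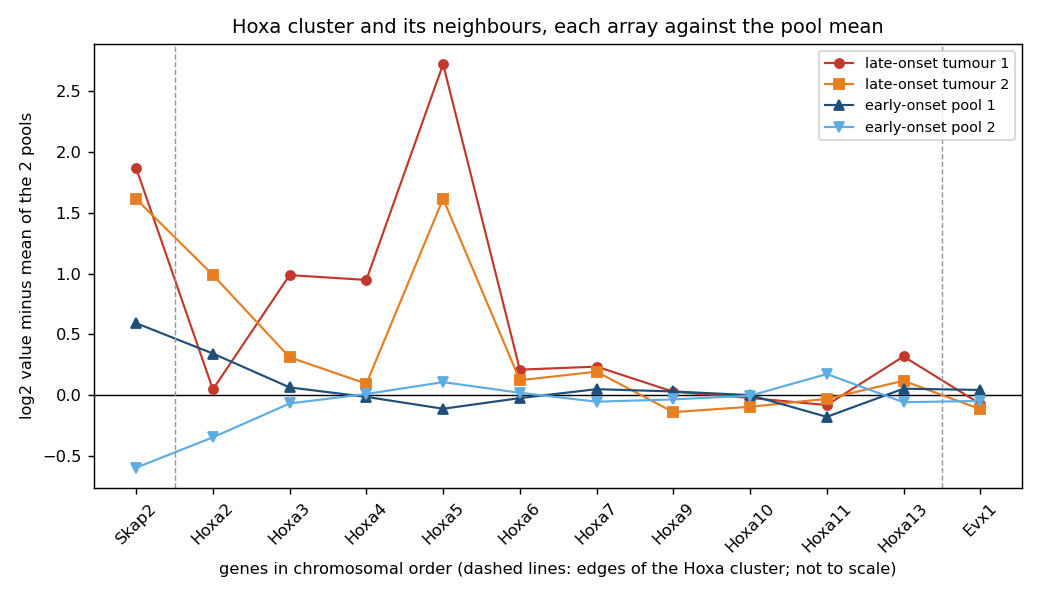
Log2 value of each array minus the mean of the 2 pools for Skap2, the 10 measured Hoxa genes and Evx1 in their chromosomal order, not to scale, with 1 line per array and dashed lines at the edges of the cluster. Hoxa5 is high in both tumours, Hoxa3 and Hoxa4 mainly in tumour 1 and Hoxa2 in tumour 2, and from Hoxa6 onward the arrays lie close together.

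From Hoxa6 on, the Hoxa cluster was nearly flat. Hoxa6, the direct neighbour of Hoxa5, was at 5.78 and 5.69 in the tumours against 5.54 and 5.59 in the pools, a difference of 0.17 (SE 0.10, adjusted p 0.33). Hoxa7, a trunk gene, was at 6.12 and 6.08 in the tumours against 5.94 and 5.84 in the pools, and Hoxa13, a gene of the limb tips and hindgut, at 6.28 and 6.09 in the tumours against 6.02 and 5.91 in the pools. For these 3 genes the tumours lay above the pools by small amounts, with differences of 0.22 for both Hoxa7 (adjusted p 0.225) and Hoxa13 (adjusted p 0.286). Hoxa9, Hoxa10 and Hoxa11, genes of the trunk and limbs, had differences of -0.05, -0.06 and -0.05, and none was called.

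In the RefSeq table, Hoxa3 has a transcript span that contains Hoxa4, Hoxa5 and Hoxa6, and the noncoding gene Hoxaas3 contains Hoxa5 and Hoxa6. Which of these overlapping transcripts each probe set reads is not stated, so the signals of Hoxa3, Hoxa4, Hoxa5 and Hoxa6 cannot be fully told apart. The opposite-strand transcript Hoxaas2, which overlaps the Hoxa3 span, was at 5.83 and 5.66 in the tumours against 5.62 and 5.40 in the pools (difference 0.24, adjusted p 0.28).

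In the Hoxb cluster 0 of 9 genes were called, against 14.7% of all genes, and differences ran from -0.24 to 0.16. Only 3 of the 9 had a mean above the olfactory receptor mark of 5.89. Of all genes at or below that mark, 2.38% were called. Hoxb1, the earliest hindbrain gene of the cluster, was at 6.67 and 6.63 in the tumours against 6.64 and 6.56 in the pools. Hoxb3 was at 6.21 and 6.36 in the tumours against 6.46 and 6.32 in the pools, and the groups overlapped for both genes. Hoxb9, a gene of the thoracic trunk, was at 6.31 and 6.39 in the tumours against 6.56 and 6.48 in the pools, a difference of -0.17 (adjusted p 0.327). The groups did not overlap for Hoxb9, but it was not called. Hoxb4, which patterns the hindbrain below the ears, had the lowest value of all Hox genes at -0.24 (SE 0.10, 95% interval -0.50 to 0.02, adjusted p 0.191).

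The Hoxc genes act in the trunk and its appendages, and 0 of 9 were called, with differences from -0.06 to 0.12. Of all genes 14.7% were called, but 2.38% of those at or below the olfactory receptor mark. Only 2 of the 9 Hoxc genes lay above that mark. Hoxc8, a gene of the lower thoracic trunk and its motor neurons, was at 6.12 and 5.85 in the tumours against 6.09 and 5.92 in the pools. Hoxc9, which separates thoracic from limb motor neurons, was at 5.85 and 5.90 in the tumours against 5.88 and 5.97 in the pools. In all 9 Hoxc genes the groups overlapped, while for 58.9% of all genes they did not. The difference of Hoxc8 was -0.02 (SE 0.14) and that of Hoxc9 -0.05 (SE 0.10).

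In the Hoxd cluster, whose high-numbered genes shape limbs and the caudal spinal cord, 0 of 9 genes were called, against 14.7% of all genes. Differences ran from -0.14 to 0.19. Only 2 of the 9 lay above the olfactory receptor mark, and 2.38% of all genes at or below it were called. Hoxd9 was at 6.50 and 6.27 in the tumours against 6.13 and 6.27 in the pools, a difference of 0.19 (SE 0.13, adjusted p 0.395). Hoxd11 was at 6.32 and 6.37 in the tumours against 6.43 and 6.24 in the pools, a difference of 0.01 (SE 0.11, adjusted p 0.973). The groups overlapped for both.

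By position, paralog groups 1 to 4 had a median log2 fold change of -0.06 over 11 genes, groups 5 to 9 of 0.01 over 14 genes, and groups 10 to 13 of -0.00 over 12 genes. By cluster, the median was 0.22 for Hoxa, -0.11 for Hoxb, -0.02 for Hoxc and -0.00 for Hoxd. Over all 37 Hox genes the median was -0.00, against -0.01 over all genes, and 18 were above 0 and 19 below. The groups did not overlap for 16 Hox genes, 9 higher and 7 lower, which is 43.2%, against 58.9% of all genes.

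Dim signal bounds what the other members can show. The signal of 26 Hox probe sets, averaged over the 4 arrays, lay at or below 5.89, the value under which 95% of 1015 olfactory receptor genes fell. These are receptor genes of the nose that other tissues barely use. Probe sets differ in how strongly they bind, so this mark sorts dim signals and does not order genes by level. Of all genes at or below the mark 2.38% were called, against 20.1% of those above it. Of the 11 Hox genes above it, which are Hoxa4, Hoxa5, Hoxa7, Hoxa13, Hoxb1, Hoxb3, Hoxb9, Hoxc8, Hoxc9, Hoxd9 and Hoxd11, Hoxa5 was called, and it passed the mark through the tumours alone.

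Apart from Hoxa2, Hoxa3, Hoxa4 and Hoxa5, the 33 other Hox genes had differences between -0.24 and 0.22 and adjusted p of 0.191 or more. Their 95% intervals lay between -0.50 and 0.52, within a 2-fold change of the measured signal either way. Array signal understates the change of a dim gene, so these intervals bound the signal and not the transcript.

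**Figure D3:**
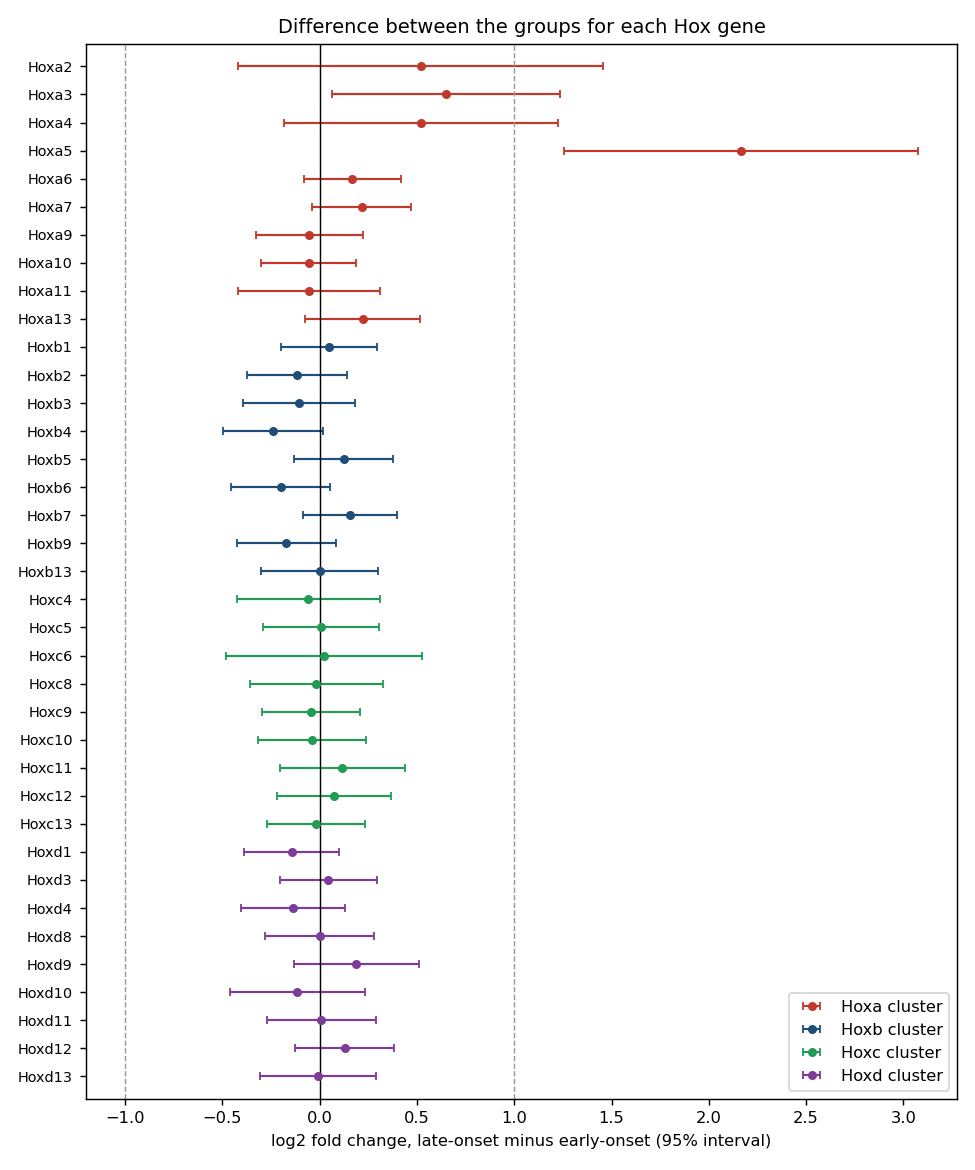
Log2 fold change, late-onset minus early-onset, of the 37 Hox genes with 95% intervals from limma, coloured by cluster; the dashed lines mark a 2-fold change either way. Hoxa5 alone has an interval (1.26 to 3.07) beyond the 2-fold line, and 33 intervals lie between the lines.

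MicroRNA genes lie within the clusters, and their mature sequences are shown because 2 families recur across clusters with a shared seed. Capitals mark the seed, bases 2 to 8 from the 5′ end, in the RefSeq sequences of GRCm38.p6.
mmu-miR-10a-5p: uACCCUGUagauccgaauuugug
mmu-miR-10b-5p: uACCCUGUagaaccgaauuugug
mmu-miR-196a-5p: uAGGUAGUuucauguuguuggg
mmu-miR-196b-5p: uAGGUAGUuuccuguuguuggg

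The miR-10 pair, from the Hoxb cluster (Mir10a) and the Hoxd cluster (Mir10b), differs by U12A, and the miR-196 pair, from the Hoxb and Hoxc clusters (miR-196a) and the Hoxa cluster (miR-196b), by A12C, counted from the 5′ end with the a form first. miR-196 is known to target Hox transcripts. The probe set of Mir10a read 3.24 and 3.33 in the tumours against 3.23 and 3.19 in the pools, and that of Mir10b read 3.33 and 3.31 in the tumours against 3.39 and 3.46 in the pools. Mir196b, between Hoxa9 and Hoxa10, was at 4.95 and 5.04 in the tumours against 5.17 and 4.95 in the pools. Of the 10 other measured transcripts of the clusters, including these microRNA genes, Hottip and Haglr, 0 were called, with differences from -0.13 to 0.24. Of all genes 14.7% were called, but 2.38% of those at or below the dim signal mark. Only 1 of these 10 transcripts lay above it. Whether these probe sets read the mature microRNA or its precursor is not stated.

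The genes next to the clusters were compared, taking the 5 nearest measured protein-coding genes on each side. At the Hoxa cluster 1 of 10 was called, where 14.7% of all genes were called in either direction. This was Skap2, which lies beyond the low-numbered end and encodes an adaptor of Src kinase signalling. Its log2 values were 10.48 and 10.23 in the tumours against 9.21 and 8.02 in the pools, a difference of 1.74 (SE 0.39, adjusted p 0.0422). Both tumours lay above both pools, and pool 2 was well below pool 1. The call was lost without tumour 1 (1.61, adjusted p 0.104) and without tumour 2 (1.87, adjusted p 0.0853). On the far side, the homeobox gene Evx1 stood at -0.09 (adjusted p 0.607), and the Hoxa neighbours other than Skap2 ran from -0.37 to 0.23.

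Against 14.7% of all genes called in either direction, each other cluster also had 1 called neighbour of 10. These were Atp5g1 at Hoxb (0.57), a subunit gene of the mitochondrial ATP synthase, Gpr84 at Hoxc (-3.75), a receptor gene of macrophages, and Lnpk at Hoxd (0.46), which shapes the endoplasmic reticulum. Atp5g1 lost its call without either pool or tumour 2 (0.46 to 0.62, adjusted p 0.0915 to 0.193), and Lnpk without any 1 array (0.38 to 0.54, adjusted p 0.0594 to 0.232). Over 485 brighter genes of chromosome 6, those above the median signal of all genes, the median difference was 0.00, and tumour 1 minus tumour 2 was -0.04, against 0.05 and -0.03 over all 9968 such genes.

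Of the factors that bind DNA beside Hox proteins, 0 of 8 measured PBX, MEIS and PKNOX genes were called, with a median of -0.06. All 8 lay above the dim signal mark, where 20.1% of genes were called in either direction, against 14.7% of all genes. The nearest to the threshold were Pknox1 (0.40, adjusted p 0.0821) and Pknox2 (0.48, adjusted p 0.083). Meis1 was at 9.45 and 8.94 in the tumours against 9.39 and 9.29 in the pools, and Meis2 at 9.71 and 9.83 in the tumours against 9.70 and 9.71 in the pools. Both thus had overlapping groups.

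Of 20 Polycomb genes, 5 were called higher and 1 lower, at a median of 0.17, where 6.59% of all genes were called higher and 8.12% lower. All 20 lay above the dim signal mark, where 20.1% of genes were called in either direction. Polycomb complexes silence Hox clusters by marking or compacting their chromatin. Ezh2, the histone methyltransferase subunit, was at 11.02 and 10.96 in the tumours against 10.01 and 10.06 in the pools. Its partner Eed was at 9.07 and 9.15 in the tumours against 8.46 and 8.41 in the pools. The accessory gene Phf19 (0.67) and the ubiquitin ligase gene Rnf2 (0.68) were also called higher, as was Suz12 (0.59), while Phc3 was lower (-0.47). Of 13 genes of the activating Trithorax group and other chromatin factors, 0 were called, led by Kmt2c (-0.33, adjusted p 0.132) and Ash2l (0.25, adjusted p 0.157). All 13 likewise lay above the dim signal mark, where the share called was 20.1%.

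Among the Polycomb genes, the Ezh2 call held under each array left out. Eed lost its call without pool 1 (0.70, adjusted p 0.0797) and without pool 2 (0.65, adjusted p 0.105), and its other probe set gave 0.24 (adjusted p 0.512) and the mean of both 0.45 (adjusted p 0.0853). Without pool 1 and without pool 2 the calls were also lost for Rnf2 (adjusted p 0.118 and 0.122) and Phf19 (0.132 and 0.0798), and Phf19 lost it without tumour 1 (0.0639). Suz12 lost it without tumour 2 or either pool (0.54 to 0.65, adjusted p 0.0571 to 0.14), and Phc3 with any 1 array left out (-0.50 to -0.44, adjusted p 0.0653 to 0.19).

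Of 17 retinoic acid genes, 3 were called higher and 3 lower, at a median of 0.14, against 6.59% higher and 8.12% lower over all genes. Aldh1a3, a retinoic acid synthesis enzyme gene, was at 9.09 and 10.88 in the tumours against 6.96 and 6.52 in the pools. Aldh1a1, another such enzyme gene, was at 7.46 and 7.40 in the tumours against 10.17 and 9.60 in the pools. The 2 enzyme genes thus went in opposite directions, by 3.25 (SE 0.58) and -2.46 (SE 0.20). The receptor gene Rarb was at 10.01 and 10.22 in the tumours against 9.19 and 8.15 in the pools, a difference of 1.44 (SE 0.34, adjusted p 0.0489). Dhrs3, which turns retinal back to retinol, was lower by 1.86 (SE 0.27), at 7.35 and 8.17 in the tumours against 9.58 and 9.66 in the pools. Rara was the other gene called higher (1.04), and Rxrg the other called lower (-0.96).

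Most retinoic acid calls were lost when some single array was left out, and fewer of all genes were called in each such fit. Without pool 1 and without pool 2 the call was lost for Aldh1a3 (adjusted p 0.0873 and 0.127) and Dhrs3 (0.0698 and 0.0823), at 3.47 and 3.02 for Aldh1a3 and -1.90 and -1.82 for Dhrs3. Rarb lost it without tumour 1 (0.087), tumour 2 (0.131) or pool 2 (0.93, adjusted p 0.0638). Without pool 1 and without pool 2, Rara (adjusted p 0.0542 and 0.0599) and Rxrg (0.0592 and 0.0846) were no longer called. Aldh1a1 kept its call under each array left out. The pericyte and fibroblast markers and Aldh1a3 were both highest in tumour 2, and astrocyte markers and Aldh1a1 were both lower in late-onset cells. The part of these cells in the retinoic acid values was not tested.

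Egr2 encodes a zinc finger activator of Hoxa2 and Hoxb2 in the hindbrain and is also an immediate early gene. It alone was called of 7 upstream regulators, where 14.7% of all genes were called in either direction. It was at 9.75 and 10.35 in the tumours against 8.86 and 8.77 in the pools, a difference of 1.24 (SE 0.21, adjusted p 0.0206). The call was lost without pool 1 (adjusted p 0.0918) and without pool 2 (adjusted p 0.116). Hoxb2, the other of the 2 Hox targets named here, was at 5.22 and 5.20 in the tumours against 5.39 and 5.27 in the pools. Its difference was -0.12 (adjusted p 0.513). The caudal genes Cdx1, Cdx2 and Cdx4 were not called, with differences of -0.15, -0.06 and 0.15.

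Of 19 transcription factors that pattern the brain ahead of the Hox domain, 2 were called, both higher. Over all genes 6.59% were called higher and 8.12% lower. Of the 19, 14 lay above the dim signal mark, where 20.1% of genes were called in either direction. En2, a homeobox gene of the midbrain and the front of the hindbrain, was at 9.09 in tumour 1 and 8.32 in tumour 2, against 6.76 in pool 1 and 5.79 in pool 2. Its paralog En1 was at 7.61 and 7.35 in the tumours against 6.57 and 6.06 in the pools. Both tumours lay above both pools for each gene, with tumour 1 the highest array. The differences were 2.43 (SE 0.39, adjusted p 0.0185) for En2 and 1.17 (SE 0.20, adjusted p 0.0217) for En1. Without pool 2, En2 was at 1.94 (adjusted p 0.0654) and En1 at 0.91 (adjusted p 0.0781), and without tumour 1 En1 was at 1.03 (adjusted p 0.057), each no longer called.

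Forebrain genes of the same list were not called. Lhx2 was at 8.56 and 8.46 in the tumours against 8.26 and 8.95 in the pools, and Otx2 at 5.12 and 5.00 in the tumours against 5.18 and 6.23 in the pools. The Otx2 value of pool 2 stood apart from the other 3 arrays. Of the 6 homeobox genes beside or akin to the clusters 0 were called, against 14.7% of all genes, and 3 of the 6 lay above the dim signal mark. Nearest to the threshold was Gsx1, a ventral neural tube gene, at 0.39 (adjusted p 0.0711).

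**Figure D4:**
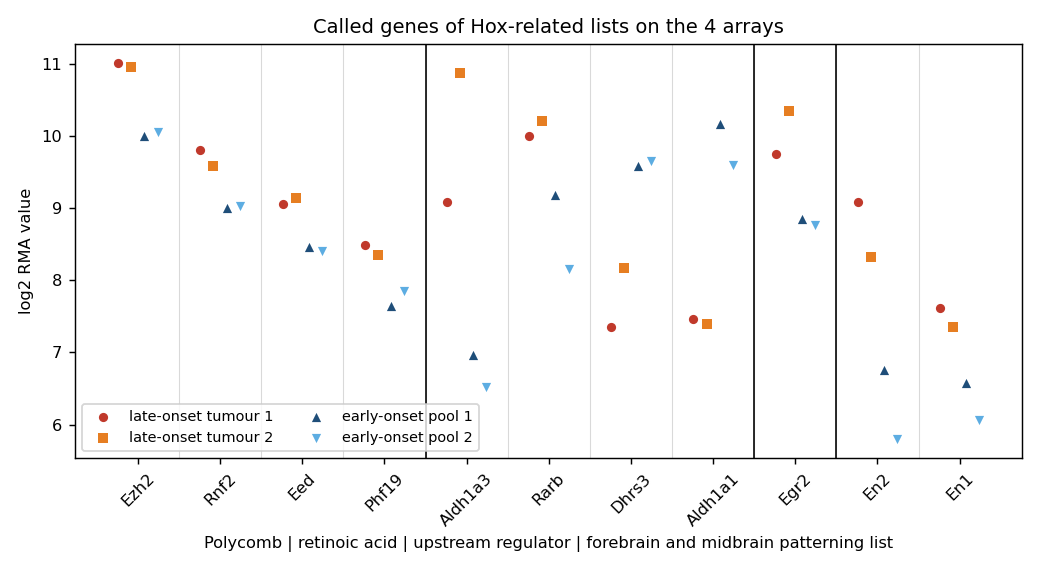
Log2 RMA values on the 4 arrays of 11 called genes, up to 4 a list by size of change, from the Polycomb, retinoic acid, upstream regulator and forebrain and midbrain lists, with 1 symbol per array. Of the 11 genes drawn, both tumours lie below both pools for Dhrs3 and Aldh1a1 and above them for the others.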

How the data were processed

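Expression was measured on 4 arrays, 2 per group. The deposited log2 values were probe set summaries. The submitters' processing notes name RMA and affy 3.4.2 and give no settings. The arrays' medians lay between 6.63 and 6.71, and the number of arrays limits the precision. Of 34760 probe sets, 21640 had 1 gene symbol in the platform annotation, 1321 several and 11799 none, and the last 2 kinds were left out. Each gene was its probe set with the highest mean, giving 19937 genes. Symbols were checked by Entrez identifier against the GRCm38.p6 RefSeq table, and 0 changed.

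Late- and early-onset samples were tested by limma 3.58.1 under R 4.3.3, through lmFit then eBayes without more scaling or filtering, with Benjamini-Hochberg adjustment over all genes. The labels call the samples biological replicates. An exact permutation test of 2 against 2 cannot go below 0.333 and was not used.

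Values on all arrays are given for Hox genes that were called or lay above the 95th percentile of olfactory receptor genes, and for listed genes by call and size. The members, lists and rules were chosen with earlier results of these data known. Meis1, Meis2, Cdx genes, Evx1, Hoxb2, Hoxb4, Hoxc6, Lhx2, Otx2 and Col1a1 were named after their values were seen. Hoxa6, Mir10a, Mir10b and Mir196b were also given on all arrays outside these rules. Alternatives covered scaling, variance model, filters, probe set choice, array weights, a replicate block and each array left out.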

Additional observations from a re-analysis of the deposited data

How the results depend on the processing

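Hoxa5 was called under all 11 other settings that kept the 4 arrays, with adjusted p from 0.0150 to 0.0466, and 0 to 3 Hox genes were called over the fits that left out 1 array each. The count over all genes was 2931, and 850 to 2577 with 1 array left out. Hoxa5 has 1 probe set, so the mean of probe sets and the lowest probe set left its values unchanged, at a difference of 2.17. Its calls under those settings therefore add no support. The filter at the olfactory receptor mark also left this difference unchanged, and Hoxa5 passed that filter through the tumours alone. No label says that the replicate numbers pair the samples. Deviations of same-numbered arrays from their group means correlated at -0.04 over genes. With 2 arrays per group this value cannot settle whether same-numbered arrays were paired. With the replicate block 1833 genes were called, 1 of them a Hox gene, and Rnf2 (adjusted p 0.0528), Suz12 (0.0544), Phc3 (0.0741), Phf19 (0.0657), Aldh1a3 (0.0545), Rarb (0.0843), Lnpk (0.0825) and Atp5g1 (0.0795) lost their calls. Robust eBayes gave 0.0593 for Skap2, 0.0541 for Aldh1a3 and 0.0625 for Rarb, and array weights gave 0.0516 for Skap2 and 0.059 for Rarb. Quantile normalization and cyclic loess gave 0.0555 and 0.0551 for Rarb and 0.0591 and 0.064 for Lnpk, and the mean of probe sets and the lowest probe set gave 0.0589 and 0.126 for Phc3. Gsx1 was called after median subtraction (0.44, adjusted p 0.0456). Among the genes followed, signs turned for Hoxc8, Hoxc9 and Hoxd11, all near 0, and for Atp5g1, which was at -0.10 by its probe set with the lowest mean. Hoxc8 was at 0.041 after median subtraction, 0.016 after quantile normalization, 0.015 after cyclic loess and -0.15 to 0.12 with 1 array left out. Hoxc9 was at 0.012 after median subtraction, and Hoxd11 at -0.083 to 0.10 with 1 array left out. The cause of these changes was not tested. Dim signal and 2 arrays per group limit what the other Hox genes can show.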
